A study of Mus musculus with 18 samples.

Results

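The genes described here are 10 regulators of the sclerotome and of early cartilage: Sox9, Sox5, Sox6, Pax1, Pax9, Nkx3-2, Runx2, Runx3, Gdf5 and Foxc2. They were taken by symbol from the 34244 named genes of an RNA-sequencing table, and all 10 were found and passed the filter on low values. By textbook knowledge Gdf5 encodes a secreted ligand and not a transcription factor, whereas the others encode DNA-binding transcription factors. The table holds 9 whole mouse embryos at E11.5, in mid-gestation, on the FVB background, 3 wild type (Dnmt3b+/+), 3 homozygous for a conventional null allele (Dnmt3b-/-) and 3 homozygous for a knock-in of a catalytically inactive Dnmt3b at the endogenous locus (Dnmt3bCI/CI). Dnmt3b is a de novo DNA methyltransferase. Comparing the null with the inactive protein asks which changes need the loss of the whole protein. The embryos came from natural matings of heterozygous parents, only live embryos were used, and each library is 1 embryo. Whole embryos mix many tissues, so a lower value cannot tell fewer sclerotome or cartilage precursors from less RNA per cell.

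The sclerotome is the ventral part of the somite that forms the vertebrae and ribs. It is induced by Hedgehog signals from the notochord and floor plate, and its cells express Pax1, Pax9, Nkx3-2 and Foxc2. Sox9 then starts the chondrogenic programme and, with its partners Sox5 and Sox6, switches on cartilage matrix genes such as Col2a1 and Acan. Runx2 and Runx3 act later, in chondrocyte maturation and, for Runx2, in bone formation. Gdf5 is a bone morphogenetic protein family ligand that marks the future joints of the limb and promotes early condensation of the cartilage primordia. Several of these genes are also used elsewhere in the embryo, such as Runx3 in sensory ganglia, Sox9 in neural progenitors, Pax9 in the pharynx and Foxc2 in vessels.

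Dnmt3b itself, the targeted gene, was not lower in the embryos labelled Dnmt3b-/-. Its level over the whole gene was 2.45, 3.12 and 3.33 FPKM (fragments per kilobase of exon, scaled to the depth of the library) there, against 2.25, 1.62 and 2.04 FPKM in Dnmt3b+/+ and 2.06, 1.98 and 2.32 FPKM in Dnmt3bCI/CI. The log2 difference was 0.57 (adjusted p = 0.0248, limma). A value summed over the gene does not test which exons are read, so the null embryos are named by their label. The total reads behind the values ranged from 38451729 to 49808776 per library. The least abundant member had 36 reads in its lowest library (Runx3 in Dnmt3b-/- replicate 3), and the most abundant 5447 (Sox9 in Dnmt3b+/+ replicate 2). Xist, transcribed from the inactive X chromosome of females, was read at 63.2 FPKM in Dnmt3b+/+ replicate 1 and at 45.3 FPKM in Dnmt3bCI/CI replicate 3, with Y-linked genes near 0 in both. The other 7 embryos, among them all 3 labelled Dnmt3b-/-, showed the opposite pattern, so sex was not balanced over the genotypes. Dnmt3b+/+ replicate 2 stood apart from the other 8 embryos in liver RNA. Afp, a fetal serum protein of hepatocytes, was at 0.119 FPKM there and at 23.8 to 93.3 FPKM in the others, and Alb, serum albumin, at 0.103 FPKM and at 9.67 to 85.7 FPKM. Results against Dnmt3b+/+ are therefore also given without this embryo where a call changes.

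Promoter windows of Runx3 and Pax1 are printed because both genes were called lower in at least 1 comparison, and those of Runx2 and Pax9 because these are their closest relatives among the 10 genes. Each window runs from 250 bases before to 50 after a RefSeq transcript start (GRCm38.p6), 5′ to 3′ on the strand of the gene. Capitals mark CpG, the dinucleotide that Dnmt3b methylates. Of the 10 genes, 7 matched the RefSeq table (13 windows), and Sox9, Gdf5 and Foxc2 did not.
Runx3 distal window (chr4:135120395-135120694, plus strand): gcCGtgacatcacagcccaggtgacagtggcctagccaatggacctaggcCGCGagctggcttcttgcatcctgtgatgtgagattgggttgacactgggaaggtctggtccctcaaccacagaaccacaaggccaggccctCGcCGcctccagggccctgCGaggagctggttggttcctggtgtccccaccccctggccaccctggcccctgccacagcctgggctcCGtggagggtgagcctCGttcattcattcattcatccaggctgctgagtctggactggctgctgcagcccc
Runx3 proximal window (chr4:135152295-135152594, plus strand): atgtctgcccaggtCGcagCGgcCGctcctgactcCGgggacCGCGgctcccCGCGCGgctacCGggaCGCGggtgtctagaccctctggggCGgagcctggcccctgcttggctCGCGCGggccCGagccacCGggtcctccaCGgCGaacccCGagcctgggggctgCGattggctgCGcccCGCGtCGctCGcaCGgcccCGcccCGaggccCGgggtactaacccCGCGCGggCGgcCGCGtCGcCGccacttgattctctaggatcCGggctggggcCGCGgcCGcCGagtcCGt
Runx2 window (chr17:44814578-44814877, minus strand): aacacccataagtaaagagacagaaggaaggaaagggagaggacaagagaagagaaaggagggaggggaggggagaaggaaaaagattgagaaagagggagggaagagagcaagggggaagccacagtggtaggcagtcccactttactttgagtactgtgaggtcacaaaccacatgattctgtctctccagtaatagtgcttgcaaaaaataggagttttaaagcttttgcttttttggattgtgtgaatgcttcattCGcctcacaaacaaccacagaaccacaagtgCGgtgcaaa
Pax1 window (chr2:147364744-147365043, plus strand): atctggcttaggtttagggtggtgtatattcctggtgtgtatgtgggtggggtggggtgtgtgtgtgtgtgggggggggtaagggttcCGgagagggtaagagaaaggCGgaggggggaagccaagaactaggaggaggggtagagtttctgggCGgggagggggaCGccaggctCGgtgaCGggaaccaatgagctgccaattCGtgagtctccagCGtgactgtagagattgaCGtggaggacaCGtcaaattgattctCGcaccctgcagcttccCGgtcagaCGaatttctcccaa
Pax9 window (chr12:56695221-56695520, plus strand): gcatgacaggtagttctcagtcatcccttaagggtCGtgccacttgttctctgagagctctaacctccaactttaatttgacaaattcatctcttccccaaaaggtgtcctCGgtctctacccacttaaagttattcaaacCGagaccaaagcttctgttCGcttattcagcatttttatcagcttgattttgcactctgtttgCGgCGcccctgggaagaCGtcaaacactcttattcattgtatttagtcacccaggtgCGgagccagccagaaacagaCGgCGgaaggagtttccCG
The distal Runx3 window and the Runx2 window span the 5′ ends of their gene models, whereas the proximal Runx3 window and those of Pax1 and Pax9 lie within the gene models. The proximal window of Runx3 held 45 CpG, a number that 1.93% of all 32851 windows reached. Its distal window held 8, the Pax1 window 13, the Pax9 window 11 and the Runx2 window 2, beside a median of 7 over all windows. The members' windows therefore ranged from poor to very rich in CpG. The letters ACCACA, the core bound by Runx proteins, occurred 2 times in the distal Runx3 window and 3 times in the Runx2 window, counting both strands, and 0 times in the proximal Runx3, Pax1 and Pax9 windows. Among all windows, 16.8% held the letters at least once and 1.78% held them 2 or more times. These counts describe letters only.

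In wild-type embryos the 10 genes spanned a wide range of levels per length. Sox9 was the most abundant, with 26.8 ± 1.97 FPKM (mean ± SD, n = 3, as for all means that follow). Foxc2 (7.54 ± 1.94 FPKM), Pax1 (7.0 ± 0.944 FPKM) and Nkx3-2 (4.15 ± 0.779 FPKM) came next, and the first pair lay within their spread. Gdf5 (2.48 ± 0.455 FPKM), Sox6 (2.48 ± 0.385 FPKM), Runx2 (2.32 ± 0.317 FPKM) and Pax9 (2.07 ± 0.450 FPKM) lay together and could not be ordered beyond their spread. Sox5 (1.5 ± 0.223 FPKM) and Runx3 (1.09 ± 0.143 FPKM) were lowest. The wild-type coefficient of variation ran from 7.35% for Sox9 to 25.7% for Foxc2.

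**Figure D1:**
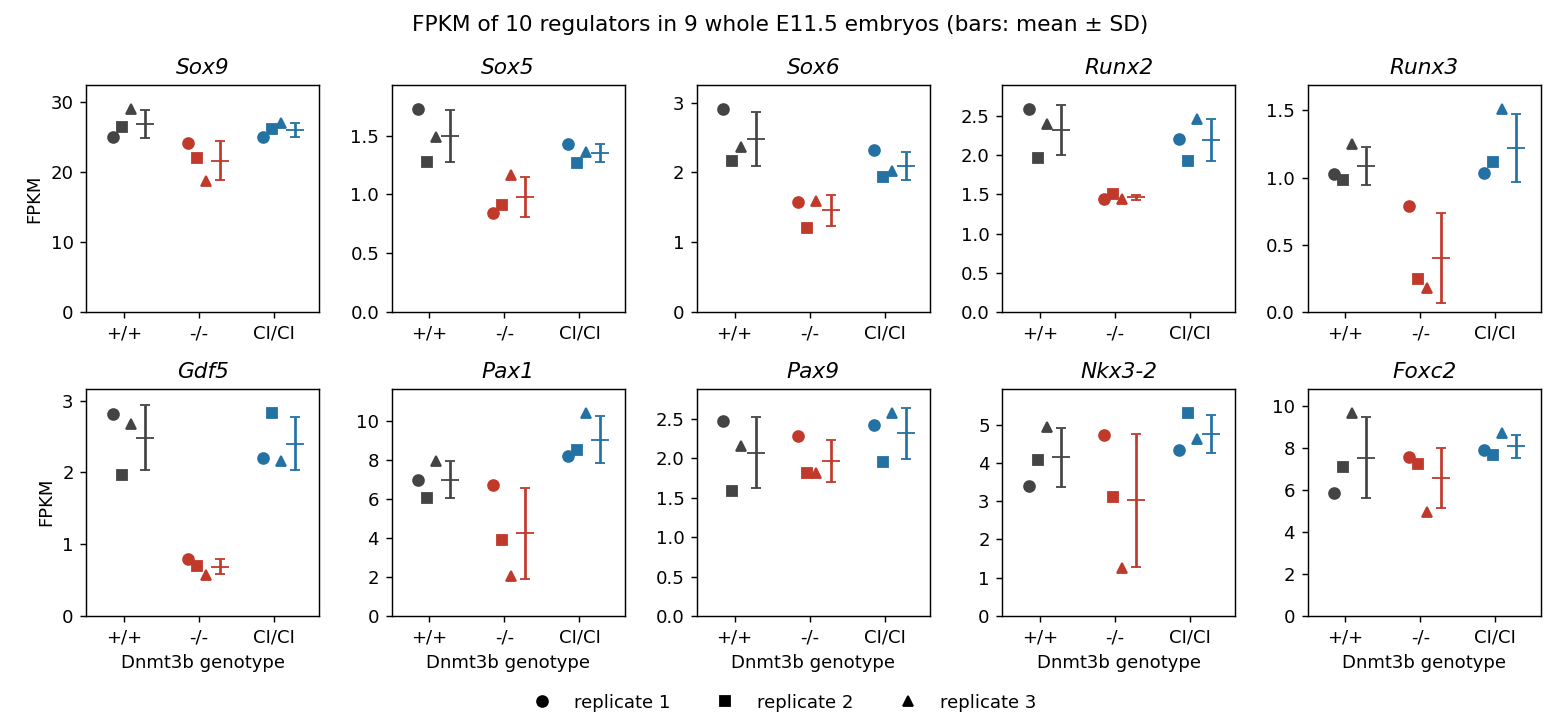
FPKM of each of the 10 genes in every embryo by Dnmt3b genotype, with linear axes from 0, symbols for replicates 1 to 3 and bars for the mean ± SD. Gdf5 lay between 0.574 and 0.789 FPKM in the 3 Dnmt3b-/- embryos and above 1.9 FPKM in the other 6, whereas Pax9 overlapped between all genotypes.

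Relative to Dnmt3b+/+, Gdf5 and Runx3 were the members called lower in embryos labelled Dnmt3b-/-, at a Benjamini-Hochberg adjusted p under 0.05 (limma) and a change of at least 2-fold. This is 2 of 10 genes, beside 3.38% of all 19397 tested genes. A further 4, Sox5, Sox6, Sox9 and Runx2, passed the adjusted p with a smaller change, which makes 6 of 10 beside 16.4% of all genes lower on the p alone. Pax1, Nkx3-2, Pax9 and Foxc2 did not pass. The differences were below 0 for all 10, although that of Pax9 was 0.10 under quantile normalization, with a median log2 difference of -0.62 beside -0.07 over all tested genes. All log2 differences here are on the scale log2(FPKM + 0.1), which understates changes of low genes. Without Dnmt3b+/+ replicate 2, Gdf5 was the 1 member called. On the adjusted p, 4 of 10 members were then lower, beside 2309 of all 19397 tested genes.

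Gdf5, the joint and condensation ligand, showed the largest difference among the members in the fit of all 9 embryos. Without Dnmt3b-/- replicate 1 that of Runx3 was larger, at -1.93. Gdf5 was at 2.81, 1.96 and 2.68 FPKM in Dnmt3b+/+ and at 0.789, 0.700 and 0.574 FPKM in Dnmt3b-/-. Dnmt3bCI/CI embryos had 2.21, 2.83 and 2.16 FPKM. Every Dnmt3b-/- embryo was thus far below every other embryo, at 31.7%, 28.2% and 23.1% of the wild-type mean. The log2 difference to Dnmt3b+/+ was -1.71 ± 0.17 (SE; adjusted p = 0.000598, limma), a 3.27-fold lower level. The call held in each of 20 alternative analyses. Reads behind these values numbered 227 to 291 per wild-type library and 54 to 73 per Dnmt3b-/- library.

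Gdf5 is on chromosome 2 (155941023 to 155945367, GRCm38, minus strand), 2.29 Mb from Dnmt3b. Of 174 genes tested within 5 Mb of Dnmt3b, 2 were called lower in Dnmt3b-/- and 1 higher. The lower genes were Gdf5 and Gm15557, an antisense gene whose exons share 936 of the 2320 exonic bases of Gdf5. Gm15557 was at 2.05, 1.44 and 1.92 FPKM in Dnmt3b+/+ and at 0.454, 0.528 and 0.357 FPKM in Dnmt3b-/-. Whether counting used strand is not given in the sources used here, so reads of these partners cannot be told apart. The window as a whole had 1.72% of genes called, beside 5.30% on the rest of the chromosome.

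Among 8 receptors and antagonists of Gdf5 and its family, 1 was called lower, the secreted antagonist Chrd, and 4 passed the adjusted p alone, all lower, with a median log2 difference of -0.16. Chrd was at 1.51, 1.92 and 1.90 FPKM in Dnmt3b+/+ and at 1.15, 0.737 and 0.600 FPKM in Dnmt3b-/- (log2 difference -1.05 ± 0.20, adjusted p = 0.0086), and without Dnmt3b+/+ replicate 2 none of the 8 was called and 2 passed the adjusted p. Without Dnmt3b-/- replicate 1, 2 were called. Nog, noggin, another secreted antagonist, had 5.95, 7.34 and 7.19 FPKM in Dnmt3b+/+ and 4.62, 3.18 and 2.98 FPKM in Dnmt3b-/- (log2 difference -0.93 ± 0.16, adjusted p = 0.0058, limma), with no overlap. The type II receptors Acvr2a and Bmpr2 differed by -0.31 and -0.28. Bmpr1a, a type I receptor, had 10.9, 8.90 and 10.5 FPKM in Dnmt3b+/+ and 8.96, 9.87 and 10.6 FPKM in Dnmt3b-/-, which overlapped. Of 8 other genes of the joint interzone, the flattened cell layer at a future joint, limma called 0. On the adjusted p alone 4 passed, all lower, beside 16.4% of all tested genes. Without Dnmt3b+/+ replicate 2, Osr2 and Erg were called lower, and without Dnmt3b-/- replicate 1, 2 genes were. The median over the interzone genes was -0.63. In which tissues of the embryo these genes were read was not tested. Gdf6, the nearest relative of Gdf5 on that list, had 1.67, 1.09 and 1.52 FPKM in Dnmt3b+/+ and 1.20, 1.51 and 1.26 FPKM in Dnmt3b-/-, and these ranges overlapped.

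Runx3 (chromosome 4, 135120652 to 135177990), a Runt-domain factor of maturing chondrocytes, was the other member called. Its levels were 1.03, 0.979 and 1.25 FPKM in Dnmt3b+/+. In Dnmt3b-/- they were 0.787, 0.244 and 0.177 FPKM, and in Dnmt3bCI/CI 1.03, 1.11 and 1.51 FPKM. Replicate 1 of Dnmt3b-/- kept 72.5% of the wild-type mean, whereas replicates 2 and 3 were at 22.5% and 16.3%. The groups did not overlap, and the log2 difference was -1.43 ± 0.38 (adjusted p = 0.0280, limma). The adjusted p passed the threshold narrowly, and the call held in 10 of 20 alternatives. It was 0.0539, 0.0558 and 0.0855 without Dnmt3b+/+ replicates 1, 2 and 3, and 0.0962 and 0.0835 without Dnmt3b-/- replicates 2 and 3. Without Dnmt3b-/- replicate 1 it was 0.000458, with a log2 difference of -1.93. The call was also lost with a replicate block (adjusted p = 0.0589), without the filter on low values (0.0630), with only the 2 genotypes in the fit (0.0691), in the 7 libraries without Xist (0.0775), and with a pseudocount of 1 FPKM, where the difference of -0.60 was under 2-fold.

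Runx3 is also read in sensory ganglia, and the summed level of 7 sensory neuron markers differed between the same embryos. It ranged from 23.6 to 44.7 FPKM in Dnmt3b+/+ and from 39.0 to 47.2 FPKM in Dnmt3bCI/CI. In Dnmt3b-/- it was 39.0 FPKM in replicate 1, 14.4 FPKM in replicate 2 and 9.87 FPKM in replicate 3. Of the 7, Avil was called lower, none was without Dnmt3b+/+ replicate 2, and 5 were without Dnmt3b-/- replicate 1, with a median log2 difference of -1.26 rather than -0.96. Skeletal muscle markers were lower too, with 4 of 5 called (Myod1, Myl1, Myog and Tnnt1). The sums of all 5 were 74.7 to 97.7 FPKM beside 93.2 to 187.6 FPKM in Dnmt3b+/+. Actc1, the marker not called, held 45.0 to 82.6 FPKM of these sums in Dnmt3b-/- and 53.4 to 136.6 FPKM in Dnmt3b+/+. Without Dnmt3b+/+ replicate 2, Myl1 alone of the 5 was called. The part of these tissues in the values of Runx3 and the other members was not tested.

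Runx2 (chromosome 17, 44495987 to 44814797), the Runt-domain factor of osteoblasts and hypertrophic chondrocytes, was lower in all 3 null-labelled embryos without reaching 2-fold. It had 2.59, 1.97 and 2.40 FPKM in Dnmt3b+/+, 1.44, 1.5 and 1.44 FPKM in Dnmt3b-/- and 2.20, 1.92 and 2.46 FPKM in Dnmt3bCI/CI. The 3 null-labelled embryos were at 62.3% to 64.7% of the wild-type mean, all below the lowest of the other 6. The log2 difference of -0.62 ± 0.12 had an adjusted p of 0.0089 (limma) but was below 2-fold. This adjusted p stayed under 0.05 in 20 of 20 alternatives. Exons of Runx2 share 519 bases with the antisense gene Runx2os1.

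Of 12 genes of the osteoblast and hypertrophic programme, 3 were called lower: Ibsp, Ihh and Sp7. Sp7, the osteoblast factor downstream of Runx2, was at 1.43, 1.38 and 1.68 FPKM in Dnmt3b+/+ and at 0.777, 0.526 and 0.535 FPKM in Dnmt3b-/-. Ihh, the Hedgehog ligand of prehypertrophic chondrocytes, was at 0.713, 0.468 and 0.803 FPKM against 0.247, 0.262 and 0.105 FPKM. Ibsp, a bone matrix protein, lay between 0.184 and 0.806 FPKM in Dnmt3b+/+. In Dnmt3b-/- it was at most 0.0242 FPKM, under the 0.1 FPKM of the filter on low values. The median of the list was -0.35, and 8 of its 12 differences were below 0. In which tissues these genes were read was not tested.

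The Sox trio was lower in every embryo labelled Dnmt3b-/-, but none of its genes reached 2-fold. Sox9 (chromosome 11, 112782224 to 112787760) had 25.1, 26.4 and 28.9 FPKM in Dnmt3b+/+, 24.1, 22 and 18.6 FPKM in Dnmt3b-/- and 24.95, 26.1 and 26.95 FPKM in Dnmt3bCI/CI. Its Dnmt3b-/- mean was 80.5% of wild type (log2 difference -0.32 ± 0.10, adjusted p = 0.042, limma), and this p stayed under 0.05 in 8 of 20 alternatives. It was 0.0824 and 0.129 without Dnmt3b+/+ replicates 2 and 3, 0.0907 and 0.106 without Dnmt3b-/- replicates 2 and 3, and 0.0617, 0.0643 and 0.0625 without Dnmt3bCI/CI replicates 1, 2 and 3. Neural progenitor and glial markers, which share tissue with Sox9, summed to 142.7 to 213.8 FPKM in Dnmt3b-/- and 130.9 to 182.5 FPKM in Dnmt3b+/+, and limma called 0 of the 7, with 1 lower and 1 higher at an unadjusted p under 0.05. Both also passed the adjusted p: Slc1a3, a glial glutamate transporter (log2 difference -0.76, adjusted p = 0.0191), and Nes, the progenitor filament nestin (0.51, adjusted p = 0.0385). Without Dnmt3b+/+ replicate 2, 0 of the 7 were lower and 2 higher on the adjusted p.

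Sox6 (chromosome 7, 115470872 to 116038796) had 2.91, 2.16 and 2.37 FPKM in Dnmt3b+/+ and 1.57, 1.20 and 1.60 FPKM in Dnmt3b-/-. Dnmt3bCI/CI had 2.32, 1.94 and 2.03 FPKM, which overlapped with wild type and not with Dnmt3b-/-. The log2 difference to wild type was -0.73 ± 0.14 (adjusted p = 0.0095, limma), and its adjusted p held in 20 of 20 alternatives. Sox5 (chromosome 6, 143828425 to 144781977) had 1.72, 1.28 and 1.49 FPKM in Dnmt3b+/+, 0.846, 0.913 and 1.17 FPKM in Dnmt3b-/- and 1.43, 1.27 and 1.36 FPKM in Dnmt3bCI/CI. Its log2 difference was -0.57 ± 0.14 (adjusted p = 0.0214, limma), with the adjusted p under 0.05 in 14 of 20 alternatives. It was 0.0566, 0.0624 and 0.0737 without Dnmt3b+/+ replicates 1 and 3 and Dnmt3b-/- replicate 2. For Sox5, replicate 3 was the highest of the 3 null-labelled embryos, unlike for Sox9, Runx3 and Gdf5, where it was the lowest. Sox5 exons share 1330 bases with the antisense gene Sox5os1.

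**Figure D2:**
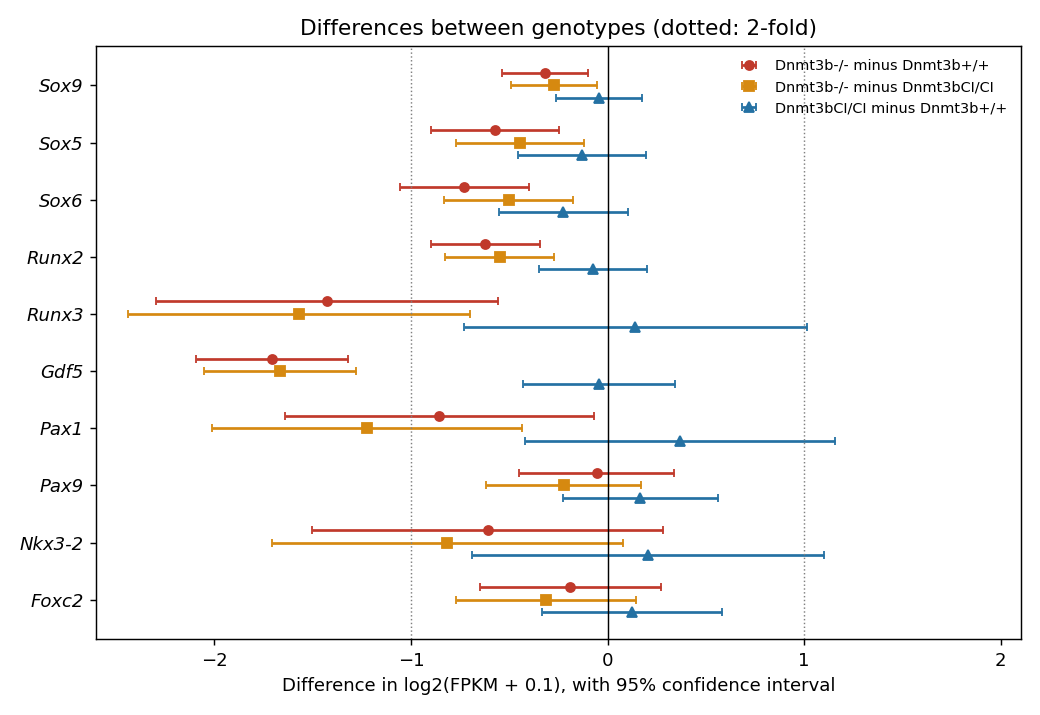
Difference in log2(FPKM + 0.1) of each gene for the 3 pairs of genotypes, with its 95% confidence interval; dotted lines mark 2-fold. Both comparisons with Dnmt3b-/- lie entirely left of the 2-fold line for Gdf5 only, and all intervals of Dnmt3bCI/CI against Dnmt3b+/+ include 0.

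The sclerotome genes Pax1 and Nkx3-2, like Runx3, varied widely between the null-labelled embryos. Pax1 (chromosome 2, 147361925 to 147393295, 6.29 Mb from Dnmt3b), a paired-box factor of the ventral sclerotome, had 7.0, 6.05 and 7.94 FPKM in Dnmt3b+/+, 6.72, 3.92 and 2.06 FPKM in Dnmt3b-/- and 8.20, 8.53 and 10.4 FPKM in Dnmt3bCI/CI. Replicate 1 of Dnmt3b-/- was thus within the wild-type range at 96.1% of its mean, and replicate 3 at 29.5%. The log2 difference was -0.86 ± 0.35 and did not pass (adjusted p = 0.101, limma). Nkx3-2 (chromosome 5, 41761483 to 41764501), a homeobox factor downstream of Pax1 and Pax9, was at 3.40, 4.09 and 4.96 FPKM in Dnmt3b+/+ and at 4.73, 3.11 and 1.25 FPKM in Dnmt3b-/-. Dnmt3bCI/CI had 4.34, 5.31 and 4.63 FPKM. Its log2 difference of -0.61 ± 0.39 had an adjusted p of 0.279. The coefficient of variation in Dnmt3b-/- was 55.4% for Pax1, 57.5% for Nkx3-2 and 82.9% for Runx3, beside 13.5%, 18.8% and 13.2% in wild type.

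The calls of these genes changed with replicate 1 of Dnmt3b-/-. Without it, 4 members were called lower, Pax1 (log2 difference -1.26, adjusted p = 0.00705), Nkx3-2 (-1.01, adjusted p = 0.0433), Gdf5 and Runx3, beside 6.05% of all tested genes. This embryo was left out after the data were seen, and with it gone 1174 genes were called lower rather than 655. Pax1 exons share 183 bases with the antisense gene AI646519, which was higher in Dnmt3b-/-, at 1.29, 0.603 and 0.913 FPKM against 0.255, 0.172 and 0.218 FPKM in Dnmt3b+/+.

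Pax9 overlapped between all 3 genotypes, and Foxc2 between Dnmt3b+/+ and each of the others. Pax9 (chromosome 12, 56691767 to 56712822), the relative of Pax1 in sclerotome and pharynx, had 2.48, 1.59 and 2.16 FPKM in Dnmt3b+/+, 2.28, 1.81 and 1.82 FPKM in Dnmt3b-/- and 2.42, 1.96 and 2.58 FPKM in Dnmt3bCI/CI. Its log2 difference between Dnmt3b-/- and wild type was -0.06, with a 95% confidence interval from -0.45 to 0.34. Foxc2 (chromosome 8, 121116171 to 121118895), a forkhead factor of paraxial mesoderm and vessels, had 5.86, 7.10 and 9.66 FPKM in Dnmt3b+/+, 7.57, 7.23 and 4.93 FPKM in Dnmt3b-/- and 7.88, 7.65 and 8.69 FPKM in Dnmt3bCI/CI. Its difference to wild type was -0.19, with an interval from -0.65 to 0.27. All 3 Dnmt3b-/- values of Foxc2 were below the lowest Dnmt3bCI/CI value, narrowly, and that difference did not pass (adjusted p = 0.269, limma). Endothelial markers overlapped too, with sums of 33 to 41.3 FPKM in Dnmt3b-/- and 36.0 to 44.5 FPKM in Dnmt3b+/+. Of 4 markers of pharyngeal endoderm, which shares Pax9, 2 were measured well enough to test and neither was called. Nkx2-1, 1 of these 2, ran from 1.39 to 8.69 FPKM in Dnmt3b-/-, so they cannot show whether that tissue was unchanged.

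**Figure D3:**
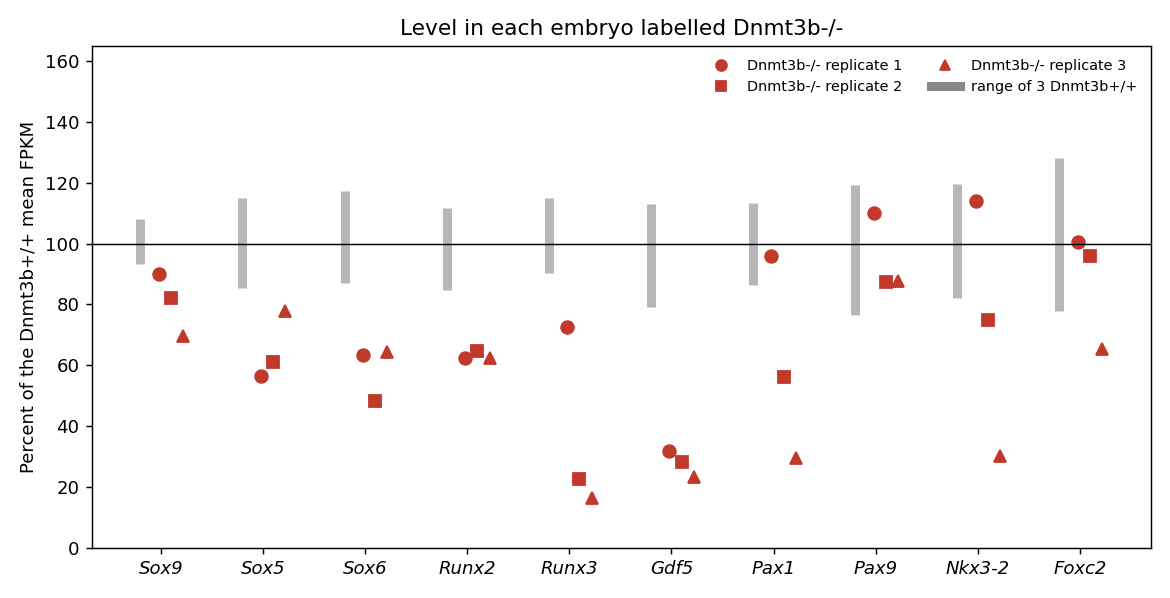
Level of each gene in the 3 embryos labelled Dnmt3b-/- as percent of the Dnmt3b+/+ mean FPKM, beside the range of the 3 wild-type embryos (grey bars). Gdf5, Sox5, Sox6 and Runx2 were low in all 3, whereas Pax1, Nkx3-2 and Runx3 ran from 96.1%, 113.9% and 72.5% in replicate 1 to 29.5%, 30.1% and 16.3% in replicate 3.

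In embryos with catalytically inactive Dnmt3b, none of the 10 genes was called against Dnmt3b+/+. No member had an unadjusted p under 0.05 in the fit of all 9 embryos, and limma-voom on reads called 0 as well. Over all genes, limma called 25 higher (0.129%) and 0 lower, with 495 lower at an unadjusted p under 0.05 and 0 lower by limma-voom. The members' adjusted p ranged from 0.949 to 0.982. The widest mean departures were Pax1 at 129.3% and Sox6 at 84.6% of wild type, with log2 differences of 0.37 (95% confidence interval -0.42 to 1.15) and -0.22 (-0.55 to 0.10). For Gdf5 the difference was -0.04, with an interval from -0.43 to 0.34. All 3 Dnmt3bCI/CI embryos read more Pax1 than any wild-type embryo, a difference that did not pass the test. With only the 2 genotypes in the fit, its unadjusted p was 0.0244 and its adjusted p 0.686 (limma).

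Dnmt3b-/- was then set directly against Dnmt3bCI/CI, which tests whether the null and the inactive protein differ. Gdf5, Runx3 and Pax1 were called lower, 3 of 10 beside 4.32% of all tested genes. On the adjusted p alone 6 passed, with Sox5, Sox6 and Runx2 added, beside 18.2% of all genes. These 3 had adjusted p of 0.0487 (Sox5), 0.0329 (Sox6) and 0.0124 (Runx2), which stayed under 0.05 in 6, 11 and 18 of 20 alternatives. Gdf5 differed by -1.67 ± 0.17 (adjusted p = 0.000633, limma) on the log2 scale, Runx3 by -1.57 ± 0.38 (adjusted p = 0.0182) and Pax1 by -1.22 ± 0.35 (adjusted p = 0.0314). The Dnmt3b-/- embryos are those of the comparison with wild type, so both comparisons share them. Runx3 was not called without Dnmt3b-/- replicates 2 and 3 (adjusted p = 0.0652 and 0.0577) or Dnmt3bCI/CI replicate 3 (0.0653), in the 7 libraries without Xist (0.0883), or with a pseudocount of 1 FPKM (log2 difference -0.68), and its call held in 15 of 20 alternatives. Pax1 was lost without any 1 Dnmt3bCI/CI embryo (adjusted p = 0.0706, 0.0724 and 0.0973 for replicates 1, 2 and 3) or Dnmt3b-/- replicate 2 (0.0779), and without replicate 3 its log2 difference was -0.80. It was also lost without the filter on low values (adjusted p = 0.0693), with only the 2 genotypes compared (0.0560), with a replicate block (0.0635) and in the 7 libraries without Xist (0.124), and held in 11 of 20 alternatives. Nkx3-2 was called when Dnmt3b-/- replicate 1 was left out (log2 difference -1.22, adjusted p = 0.0215). Sox9 had an adjusted p of 0.0631, Nkx3-2 of 0.15 and Pax9 of 0.361.

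Sox9, Sox5 and Sox6 are known to activate cartilage matrix genes. Of 18 listed matrix genes, 12 were called lower in Dnmt3b-/-, and all 18 differences were below 0, with a median log2 difference of -1.74 beside -0.62 for the regulators. Without Dnmt3b-/- replicate 1, 12 were called as well, and without Dnmt3b+/+ replicate 2, 11. Matn4, a matrilin, was at 10.05, 12.5 and 14.1 FPKM in Dnmt3b+/+ and at 1.16, 0.395 and 0.319 FPKM in Dnmt3b-/-. Matn1 was at 2.47, 4.16 and 4.65 FPKM against 0.251, 0.129 and 0.0863 FPKM. Acan, the aggrecan core protein, was at 2.18, 3.90 and 4.07 FPKM against 0.608, 0.192 and 0.0892 FPKM. Col9a3 had a log2 difference of -2.49 and Cnmd, a cartilage glycoprotein, of -2.36. Col2a1, the main collagen of cartilage and a direct target of Sox9, was not called, with 88.4, 122.2 and 140.3 FPKM against 90.6, 62.5 and 53.2 FPKM (log2 difference -0.78 ± 0.21, adjusted p = 0.0297). The median matrix gene was at 30.9%, 18.7% and 15.5% of its wild-type mean in Dnmt3b-/- replicates 1, 2 and 3, and the median of the 10 regulators at 81.2%, 62.8% and 63.4%. In Dnmt3bCI/CI, limma called 0 matrix genes against wild type, and 3 were higher at an unadjusted p under 0.05.

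**Figure D4:**
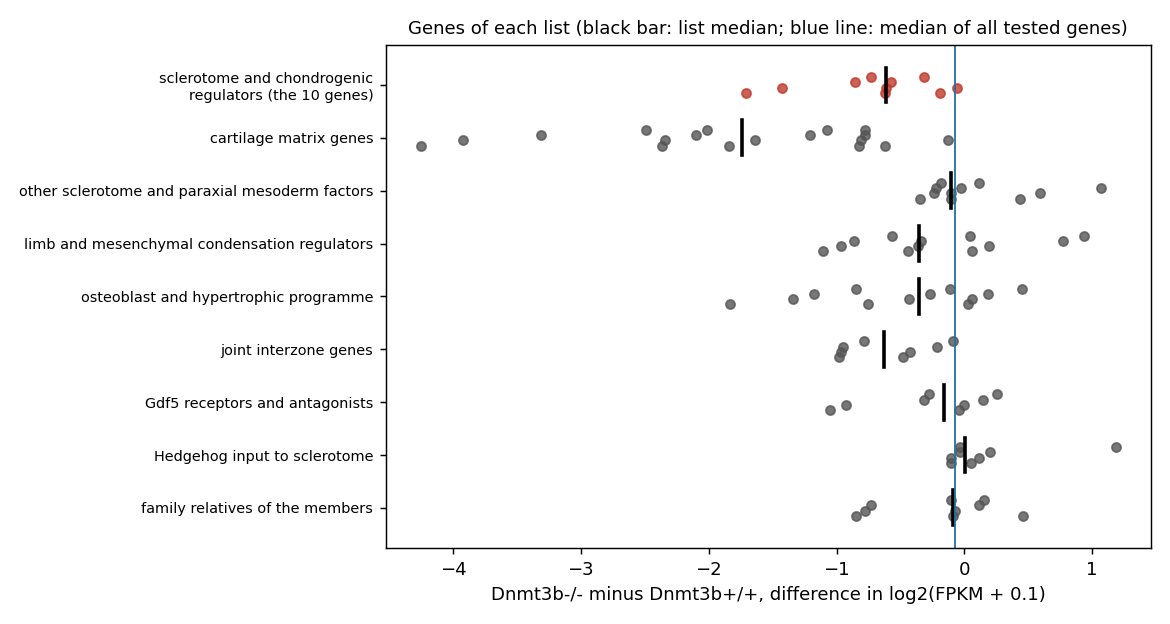
Difference between Dnmt3b-/- and Dnmt3b+/+ in log2(FPKM + 0.1) for each tested gene (points) of the 10 regulators and of 8 related lists, with list medians (black bars) and the median of all tested genes (blue line). Cartilage matrix genes reach the lowest values, with a median of -1.74, and the Hedgehog list sits at 0.01.

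Of 12 other sclerotome and paraxial mesoderm factors, 11 were tested and 0 were called lower by limma, and 0 were lower at an unadjusted p under 0.05 either. Their median was -0.10. Foxc1, the partner of Foxc2, had 8.32, 9.27 and 11.9 FPKM in Dnmt3b+/+ and 10.8, 9.42 and 7.28 FPKM in Dnmt3b-/-. Tcf15, a basic helix-loop-helix factor of the somite, rose from 4.62, 3.87 and 6.43 FPKM to 16.0, 9.51 and 7.20 FPKM (log2 difference 1.07 ± 0.29, adjusted p = 0.0289, limma), the 1 gene of the list called higher. It was not called without Dnmt3b+/+ replicate 2 or without Dnmt3b-/- replicate 1, nor against Dnmt3bCI/CI (0.53, adjusted p = 0.196). Twist1, a basic helix-loop-helix factor of mesenchyme, was higher on the adjusted p alone, at 87.7, 94.1 and 91.2 FPKM in Dnmt3b-/- against 59.2, 57.5 and 64.2 FPKM in Dnmt3b+/+ (0.59, adjusted p = 0.0027). Among 12 regulators of limb mesenchyme and condensation, Mef2c was the gene called, lower, at 1.25, 0.877 and 0.849 FPKM against 2.30, 1.95 and 2.41 FPKM, and the list median was -0.35. On the adjusted p alone 6 of the 12 were lower and 2 higher, Barx1 (log2 difference 0.94, adjusted p = 0.0194) and Prrx2 (0.77, adjusted p = 0.0152), both homeobox factors. Without Dnmt3b-/- replicate 1, 3 of the 12 were called lower and 1 higher. In which tissue Mef2c was read was not tested. Prrx1, a homeobox factor of limb mesenchyme, was at 10.9, 8.36 and 9.82 FPKM in Dnmt3b+/+ and at 8.90, 12.1 and 12.4 FPKM in Dnmt3b-/-. Of 9 family relatives of the members, limma called 0, with 3 lower and 1 higher at an unadjusted p under 0.05 and 2 lower and 1 higher on the adjusted p, and the median was -0.09. Without Dnmt3b-/- replicate 1, 1 was called lower. Sox8, the closest relative of Sox9, had 3.00, 3.59 and 4.09 FPKM against 2.57, 2.08 and 1.70 FPKM (log2 difference -0.73, adjusted p = 0.0123).

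The Hedgehog pathway, which induces Pax1 and Nkx3-2 in the sclerotome, had 1 of 8 genes called. This was the ligand Shh, at 4.29, 5.14 and 4.22 FPKM in Dnmt3b-/- against 1.97, 1.66 and 2.22 FPKM in Dnmt3b+/+ (log2 difference 1.18 ± 0.17, adjusted p = 0.0029). The median of the list was 0.01, and no other gene on it passed the adjusted p. Hbb-bh1 and Hba-x, globins of primitive red cells, were also called higher, 2 of 6 erythroid markers, and 3 were without Dnmt3b-/- replicate 1. Hbb-bh1 was at 113.4, 501.2 and 265.0 FPKM in Dnmt3b-/- against 26.9, 46.1 and 23.3 FPKM in Dnmt3b+/+. The 6 erythroid markers summed to 2211 to 6937 FPKM against 2239 to 2853 FPKM, and their part in the members' values was not tested. Of 5 hepatocyte markers, Ttr was called lower, and their sums were 52.7 to 107.8 FPKM in Dnmt3b-/- and 161.2 to 190.6 FPKM in Dnmt3bCI/CI. In Dnmt3b+/+ the sums were 258.8, 35.9 and 143.8 FPKM, and Ttr, which is also read in other tissues, made up 35.5 FPKM of the second. Without Dnmt3b+/+ replicate 2, 4 of the 5 were called lower (Alb, Apoa1, Apoa2 and Ttr). The part of liver in the members' values was not tested.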

How the data were processed

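RNA was sequenced from 9 whole E11.5 embryos, 3 per genotype. The authors aligned paired reads to mm10 (GRCm38) with STAR, quantified them in SeqMonk and deposited FPKM values per gene. A gene without reads carries a small value in place of 0. Bisulfite samples were not analysed here. Of the 34245 rows, 1 without a gene name was dropped. Reads were worked back from FPKM, exon length and library total (38451729 to 49808776) to describe depth and for 1 alternative test. No count test was used as the main test, since the deposited values are not counts.

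The 19397 genes that reached 0.1 FPKM in 3 or more of the 9 libraries entered 1 limma model (version 3.58.1, R 4.3.3) of all 9 embryos, on log2 of FPKM plus a pseudocount of 0.1, with a variance trend and no covariate. Calls needed both an adjusted p (Benjamini-Hochberg, over all tested genes) under 0.05 and a difference of 2-fold or more. An exact permutation of 3 against 3 embryos cannot give a p below 0.1. The labels describe the embryos as independent. The fit was tested on simulated data. Tables and figures were made with matplotlib 3.10.9, pandas 2.3.3 and numpy 2.4.6 under python 3.11.15. Coordinates and exon overlaps are from GENCODE on GRCm38.

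The 10 members and all lists were chosen with earlier results of these data known. All members were named with their values. From each list, the first gene and at most 5 called genes, those with the largest change, were named with values; markers were named where called, and 1 listed marker is not reported here. Hbb-bh1, Nog, Acvr2a, Bmpr2, Twist1, Slc1a3, Nes, Barx1, Prrx2, Afp, Alb, Actc1 and Nkx2-1 were given values after they were seen. Alternatives were other pseudocounts, filters, scalings, variance models and sample sets, a replicate block, each library left out, and, chosen after seeing the data, limma-voom on reads and the 7 libraries without Xist.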

Additional observations from a re-analysis of the deposited data

How the results depend on the processing

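Across 20 alternatives, none turned the direction of a called member. The differences of Pax9 and Foxc2 between Dnmt3b-/- and Dnmt3b+/+, which were not called, lay at up to 0.10 and 0.003 under some. Of the members' 200 log2 differences between Dnmt3b-/- and Dnmt3b+/+ under the alternatives, 188 kept their side of the threshold, 10 lost the call and 2 gained it. Against Dnmt3bCI/CI, 185 of 200 kept it, 14 lost it and 1 gained it, and between Dnmt3bCI/CI and Dnmt3b+/+ all 200 kept it. Members called in Dnmt3b-/- against Dnmt3b+/+ numbered 1 (Gdf5) rather than 2 with a pseudocount of 1 FPKM, without the filter, with only the 2 genotypes compared, and in the 7 libraries without Xist (1 against Dnmt3bCI/CI, too). They numbered 6 in both comparisons without a fold threshold, where 5001 and 5407 genes were called. Calls over all genes were 193, 8 and 242 with a pseudocount of 1 FPKM for Dnmt3b-/- against Dnmt3b+/+, Dnmt3bCI/CI against Dnmt3b+/+ and Dnmt3b-/- against Dnmt3bCI/CI. They were 484 and 597 for both comparisons with Dnmt3b-/- under a filter of 1 FPKM, and 15 for Dnmt3bCI/CI without the Xist libraries. The cause was not tested. With 1 library left out, calls ranged from 614 to 1427 for Dnmt3b-/- against Dnmt3b+/+ and from 751 to 1604 against Dnmt3bCI/CI, and members called from 1 to 4 in each.

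Replicate numbers gave no sign of pairing. The correlations of deviations ran from -0.34 to 0.22 for same-numbered embryos and from -0.27 to 0.33 for other embryos of different genotypes. A shared litter or batch was not tested. A replicate block left 1 member, Gdf5, called in Dnmt3b-/- against Dnmt3b+/+, and 2, Gdf5 and Runx3, against Dnmt3bCI/CI. Runx3, at 36 to 157 reads per Dnmt3b-/- library, and Gdf5, at 54 to 73, rested on few reads.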
